A study of Mus musculus with 6 samples.

Results

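The metabotropic glutamate receptor genes Grm2, Grm3, Grm4, Grm5, Grm7 and Grm8 were followed through nuclei of the mouse prelimbic cortex (PL), the middle part of the medial prefrontal cortex. They were picked by symbol, as members of 1 receptor family, with earlier results of these data known, and all 6 were found among the 32285 genes counted. Grm2 is on chr9:106643095-106656082 (minus strand), Grm3 on chr5:9485541-9725170 (minus strand), Grm4 on chr17:27422387-27521403 (minus strand), Grm5 on chr7:87584168-88134907 (plus strand), Grm7 on chr6:110645581-111567230 (plus strand) and Grm8 on chr6:27275119-28135178 (minus strand), positions being those of GENCODE release M21 on mm10. Grm2 spans 12.99 kb and Grm4 99.02 kb, whereas Grm3 spans 239.6 kb, Grm5 550.7 kb, Grm8 860.1 kb and Grm7 921.6 kb.

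The 6 libraries of single nuclei came from adult male C57BL/6 mice in 4 groups. Run mice were born to mothers that had a running wheel in the cage between early postnatal life and weaning, and Sed mice to mothers without a wheel. After weaning they lived in group housing (RunGH, SedGH) or in social isolation (RunSI, SedSI). Cohort 1, whose mice had been through the tube test of social dominance, gave 1 RunGH and 1 SedGH library, and cohort 2, whose mice had no behavioral test, gave 1 library of each of the 4 groups. Per the study, the Run and Sed males of cohort 1 were chosen from the top and bottom ranks of their group. Each library pooled the PL of several males from different mothers, so that a library, not a mouse, is the replicate, and differences between mice within a group cannot be seen. Ages are given as adult in the study's methods and as postnatal day 21, the day of weaning, in the labels.

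Metabotropic glutamate receptors are G protein-coupled receptors that answer to glutamate more slowly than the ion channels of fast transmission. Group I receptors such as mGluR5 (Grm5) sit mainly on the postsynaptic membrane and act through Gq, phospholipase C and release of calcium from stores. Group II (mGluR2 and mGluR3, Grm2 and Grm3) and group III receptors (mGluR4, mGluR7 and mGluR8, Grm4, Grm7 and Grm8) act through Gi/o proteins, lower cAMP and, at presynaptic endings, reduce transmitter release. mGluR3 is known also from glia, and mGluR7 from the active zone, the site of vesicle release. In cortex the receptors tune transmission between pyramidal cells, interneurons and astrocytes.

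The files gave 42595 nuclei after filtering, of which 39180 fell in 16 classes named from marker genes and 3274 in clusters left without a name, the rest being endothelial-like and VLMC-like nuclei too few to use. Nuclei per library ran from 4997 to 9936 and the median UMIs (unique molecular identifiers, each marking 1 captured RNA molecule) per nucleus from 1637 in SedGH of cohort 2 to 6250 in SedGH of cohort 1. Background droplets were barcodes with at least 30 UMIs but well below the minimum set for nuclei in each library. That minimum was 2452 and 3156 UMIs in cohort 1 and 621 to 1587 in cohort 2. They stand for free RNA, but whether some held nuclei of low depth was not tested. Their median was 960 and 1093 UMIs in cohort 1 and 81 to 300 in cohort 2, so that the droplets of the cohorts were unlike in depth. Pairs of libraries shared 5 to 22 barcodes, at most 0.428% of the smaller library. Levels are CPM, the usual counts-per-million scaling, of the UMIs summed over the nuclei of a class in a library, given as the mean ± SD over the 6 libraries. The astrocyte class had all 9 of its markers above 5 CPM, summing to between 18634 and 20584 CPM, but the 7 pyramidal markers still summed to 1359 and 1422 CPM there in cohort 1 against 374.2 to 588.9 in cohort 2. Classes are clusters of the same nuclei, so that differences between classes are descriptions and carry no test. The 6 receptor genes and their partner genes had been left out of the clustering, and a class name such as astrocyte stands for astrocyte-like, that is, for nuclei that resemble this type by its markers. The L2/3 class joined a cluster of 8858 nuclei with one of 2785 led by Cux2, Ankfn1 and Rorb, whose top 10 genes held 1 marker each of L2/3 (Cux2) and of the mid-layer class (Rorb), and which made up 22.6 to 25.9% of the class in each library. The L5 Chst8/Npsr1 class joined 3675 nuclei with a cluster of 128 led by Ndst4 and Abi3bp, 111 of them in RunGH of cohort 2, where they made up 13.1% of the class against at most 0.944% in the other libraries.

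Grm3, the group II receptor known from glia, was by far highest in astrocytes, at 1935 CPM ± 211 (SD, n = 6). Its astrocyte level was 2259 CPM in RunGH and 2010 CPM in SedGH of cohort 1, and 1930, 2004, 1729 and 1679 CPM in RunGH, SedGH, RunSI and SedSI of cohort 2. In every library the astrocyte level lay above that of each of the other 15 classes. Oligodendrocytes were next, at 750 CPM ± 291, although that class held as few as 11 nuclei in a library, and the log2 difference between astrocytes and oligodendrocytes, 1.48 ± 0.75 (SD), exceeded its spread. Among pyramidal neurons Grm3 was highest in the mid-layer class (612 CPM ± 92.3) and the L5 near-projecting (NP) class (591 CPM ± 84.1), whose order did not hold beyond the spread, and lowest in the L5 class marked by Chst8 and Npsr1 (208 CPM ± 57.9). Interneurons were low, with 187 CPM in SST, 186 in PV, 80.1 in VIP and 78.7 in NPY/Lamp5 nuclei.

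Grm2, the other group II receptor, was near the limit of detection. Its highest level in a class with more than 20 nuclei in every library was in mid-layer pyramidal nuclei, at 14.6 CPM ± 4.22, with 19.7 and 18.7 CPM in RunGH and SedGH of cohort 1 and 15.6, 8.39, 12.5 and 12.9 CPM in RunGH, SedGH, RunSI and SedSI of cohort 2. L5 intratelencephalic (IT) nuclei followed with 10.9 CPM, L2/3 nuclei with 9.82 CPM and NP nuclei with 9.20 CPM, and none of these neighbours differed beyond their spread. PV nuclei held 9 Grm2 UMIs in all 6 libraries together, 1.23 CPM. Background droplets held 15.7 and 10.6 CPM of Grm2 in RunGH and SedGH of cohort 1, below the mid-layer level of the same library, and 21.4, 20.2, 22.9 and 23.7 CPM in RunGH, SedGH, RunSI and SedSI of cohort 2, above it.

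**Figure D1:**
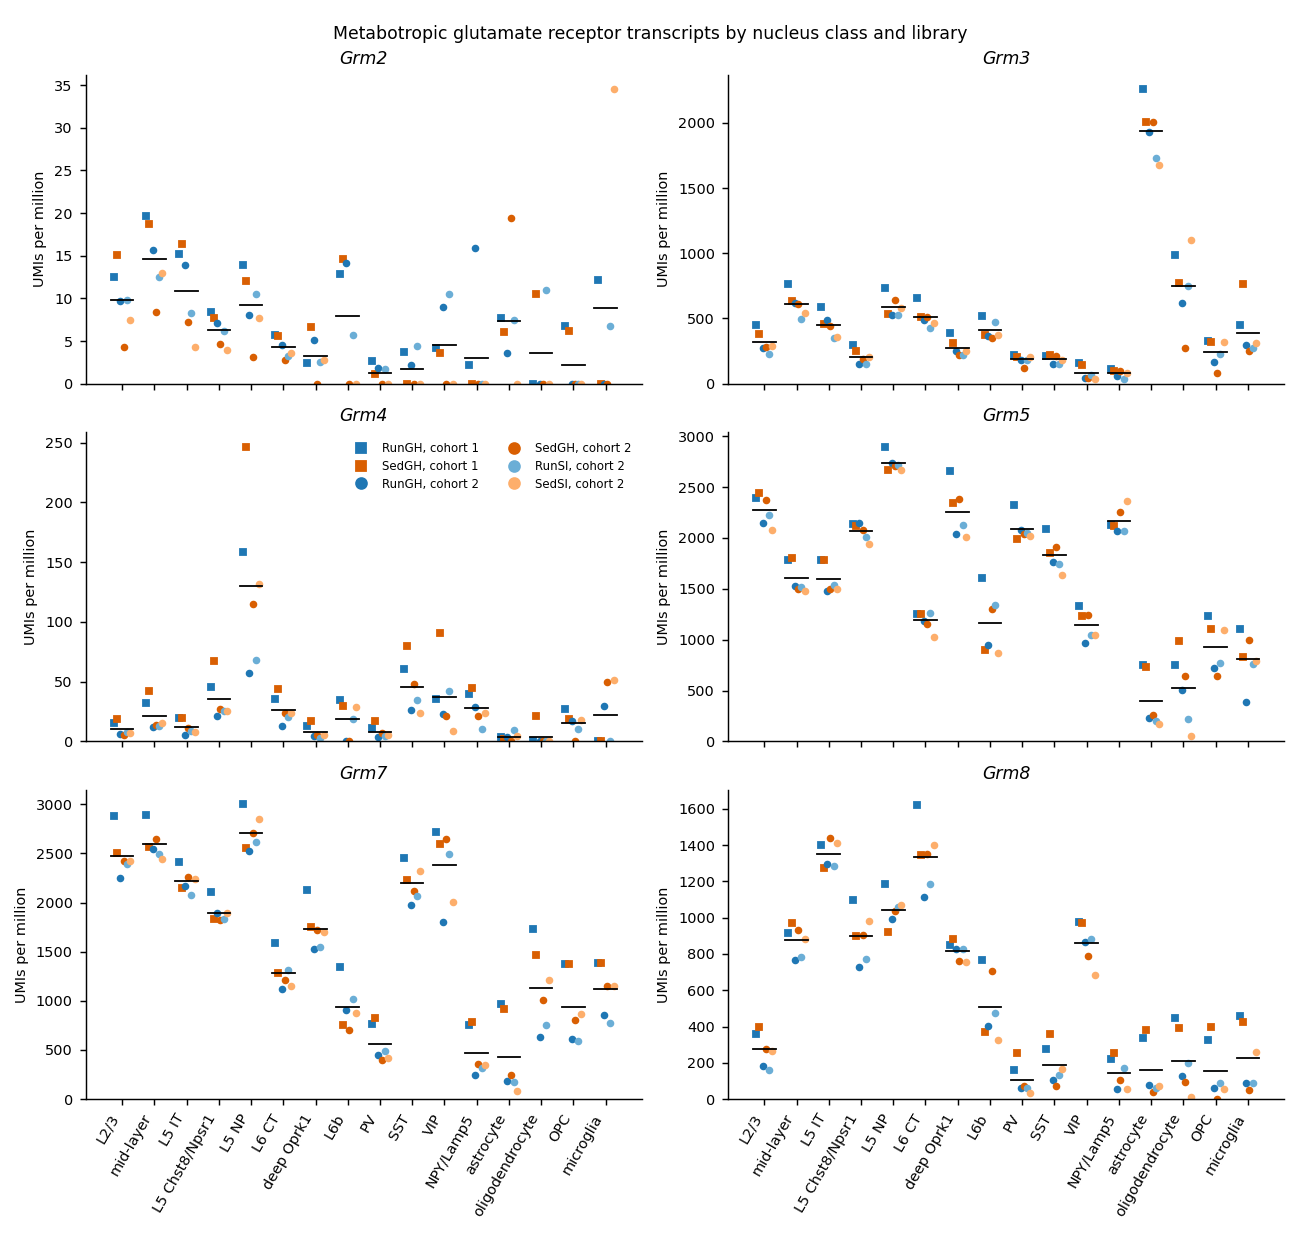
Levels (CPM, linear axes from 0) of the 6 receptor genes in 16 nucleus classes, 1 point per library (squares, cohort 1; circles, cohort 2; colors, groups) and a bar at the mean of the 6 libraries. Grm3 stands out in astrocytes (1935 CPM), Grm4 in NP nuclei (130 CPM) with cohort 1 above cohort 2, and Grm5 and Grm7 are low in astrocytes in cohort 2.

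Grm5, the group I receptor, was high in almost all neurons and differed in level by layer. NP nuclei were highest at 2732 CPM ± 85.3, with 2897 and 2666 CPM in RunGH and SedGH of cohort 1 and 2666 to 2733 CPM in the 4 libraries of cohort 2. L2/3 (2274 CPM ± 146), deep Oprk1 (2258 CPM ± 248), NPY/Lamp5 (2167 CPM ± 118), PV (2083 CPM ± 123) and L5 Chst8/Npsr1 nuclei (2070 CPM ± 83.2) formed a run of classes with no difference beyond the spread between neighbours. The step from NP to L2/3, 0.27 ± 0.09 on the log2 scale, exceeded its spread and was seen in 6 of 6 libraries. L6 corticothalamic (CT) nuclei, at 1189 CPM ± 92.2, lay 0.42 ± 0.11 (log2) below the L5 IT class in 6 of 6 libraries, and VIP nuclei, at 1143 CPM ± 142, lay lowest among the interneurons. PV and NPY/Lamp5 interneurons held Grm5 at pyramidal levels but Grm7 and Grm8 at much lower ones.

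Grm7, the group III receptor of the active zone, was also broad, yet it separated the interneuron classes. NP (2708 CPM ± 184), mid-layer (2599 CPM ± 159) and L2/3 nuclei (2479 CPM ± 214) were highest, and VIP (2378 CPM ± 380) and SST nuclei (2196 CPM ± 176) stood beside them. PV nuclei had 560 CPM ± 187, with 768 and 826 CPM in RunGH and SedGH of cohort 1 and 399 to 494 CPM in cohort 2. NPY/Lamp5 nuclei had 467 CPM ± 238, with 755 and 785 CPM in cohort 1 and 247 to 358 CPM in cohort 2. The lowest SST or VIP library, at 1805 CPM, was above the highest PV or NPY/Lamp5 library, at 826 CPM, and the groups of classes did not overlap. Among pyramidal nuclei, L6 CT held 1279 CPM ± 170 and L6b, with as few as 11 nuclei in a library, 933 CPM ± 229.

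Grm8, another group III receptor, was highest in some, not all, pyramidal classes of the deep layers. L5 IT (1350 CPM ± 74.9) and L6 CT nuclei (1336 CPM ± 178) were highest and did not differ beyond their spread. L6 CT was first in both libraries of cohort 1 and L5 IT in the 4 libraries of cohort 2. Their order changed with the processing, as did the name of the L5 IT cluster. NP nuclei followed at 1045 CPM ± 88.7, L5 Chst8/Npsr1 at 897 CPM ± 135, mid-layer at 875 CPM ± 82.3 and deep Oprk1 at 817 CPM ± 49.3. L6b, with as few as 11 nuclei in a library, lay 0.76 ± 0.51 (log2) below deep Oprk1 nuclei in 6 of 6 libraries. L2/3 nuclei held only 275 CPM ± 93.8, with 360 and 398 CPM in cohort 1 and 160 to 278 CPM in cohort 2. Its larger cluster alone had 118 to 346 CPM, and the smaller one, led by Cux2, Ankfn1 and Rorb, had 284 to 552 CPM, the higher of both in each library. Among interneurons VIP stood apart with 861 CPM ± 112, against 186 in SST, 143 in NPY/Lamp5 and 107 CPM in PV, and the lowest VIP library, 682 CPM, was above the highest of the other interneuron libraries, 358 CPM.

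Grm4, the remaining group III receptor, was low in most classes and highest in the NP class. In NP nuclei it reached 130 CPM ± 68.8, with 159 and 246 CPM in RunGH and SedGH of cohort 1 and 57.5, 115, 68.0 and 132 CPM in RunGH, SedGH, RunSI and SedSI of cohort 2. This class was the highest in each of the 6 libraries, and the step down to SST nuclei (45.4 CPM ± 21.8), 1.46 ± 0.53 on the log2 scale, exceeded its spread. VIP (36.8 CPM), L5 Chst8/Npsr1 (35.3 CPM) and NPY/Lamp5 nuclei (28.1 CPM) followed, whereas L2/3 nuclei held 9.95 CPM, deep Oprk1 7.92 CPM and astrocytes 3.86 CPM. Of NP nuclei, 47.8% in RunGH and 67.6% in SedGH of cohort 1 had at least 1 Grm4 UMI, and 14.8, 13.6, 19.5 and 30.4% in RunGH, SedGH, RunSI and SedSI of cohort 2. After thinning each nucleus to 1000 UMIs, which left out 68 of 220 NP nuclei and 58 of 96 astrocytes in SedGH of cohort 2 and none in the other libraries, the shares were 14.4 and 21.9% in cohort 1 and 5.55, 9.13, 6.67 and 11.8% in cohort 2, against at most 0.701% in astrocytes, whose median depth was 977.5 to 4306 UMIs where that of NP nuclei was 1211 to 4774. Levels in cohort 1 were above those in cohort 2 in NP nuclei of the same maternal group. Background droplets held 10.53 to 14.2 CPM of Grm4, and the median background droplet had 17.2 and 17.5% of the UMIs of the median nucleus in cohort 1 and 4.25 to 7.65% in cohort 2. The part of free RNA in these levels was not tested.

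The RNA of background droplets differed between the cohorts for the 4 receptor genes longer than 200 kb. Background droplets of cohort 1 held 2380 and 2445 CPM of Grm7, 1869 and 2063 CPM of Grm5 and 777 and 1024 CPM of Grm8, against 492 to 713, 591 to 806 and 220 to 309 CPM in cohort 2. Astrocytes moved the same way, at 744 CPM of Grm5, 939 CPM of Grm7 and 357 CPM of Grm8 as the mean of cohort 1 and 217, 170 and 61.3 CPM as the mean of cohort 2. The class joined 3 clusters, of which one held 86.9 and 91.2% of the astrocytes of cohort 1 but 2.9 to 9.38% in cohort 2, and another 75.0 to 82.99% of those of cohort 2 but 11.6 and 5.49% in cohort 1. Within the latter Grm7 was 698 and 455 CPM in cohort 1, the second from 10 nuclei, and 43.9 to 146 CPM in cohort 2, and within the former 1018 and 966 CPM and 500 to 1126 CPM, the last range from 5 to 11 nuclei a library. After subtraction of the background profile astrocytes kept 330 CPM of Grm5 and 437 CPM of Grm7 in cohort 1 and 154 and 112 CPM in cohort 2. By the mean of the 6 libraries they remained the lowest of the 16 classes for both. Before subtraction this did not hold in each library. Grm7 was lowest in NPY/Lamp5 nuclei of RunGH (755 CPM) and L6b nuclei of SedGH (757 CPM) in cohort 1, and Grm5 in oligodendrocytes of RunGH of cohort 1 and of SedSI. Grm3 was also higher in background droplets of cohort 1, at 456 and 487 CPM against 129 to 171 CPM in cohort 2, but its astrocyte level was above the background in every library. The part of free RNA in the low levels of Grm5, Grm7 and Grm8 in astrocytes and interneurons was not tested.

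**Figure D2:**
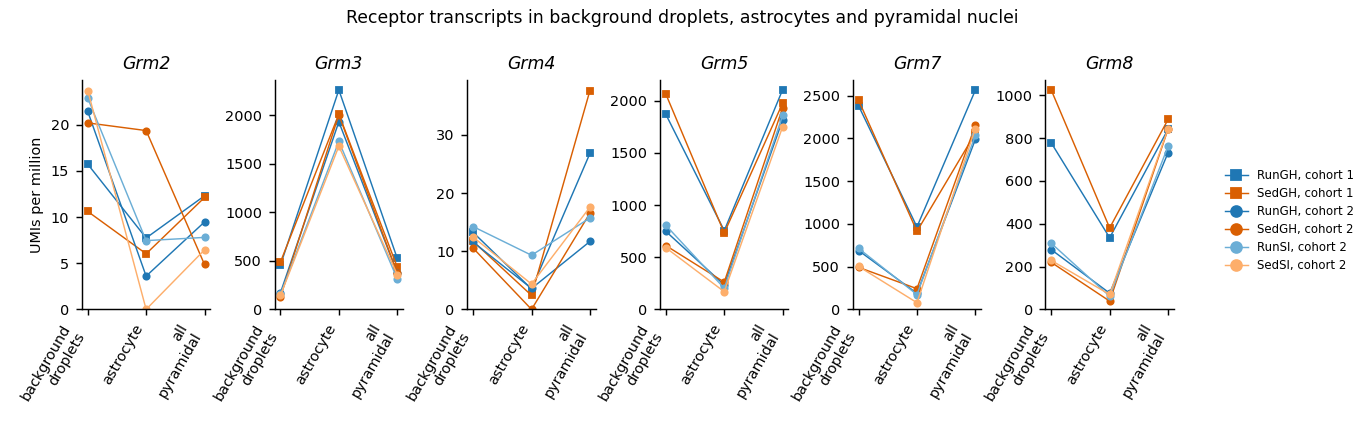
Levels (CPM, linear axes from 0) of each receptor gene in background droplets, astrocytes and all pyramidal nuclei, 1 line per library. Background droplets of cohort 1 (squares) hold more Grm5, Grm7 and Grm8 than those of cohort 2 (circles), and astrocytes follow, whereas Grm3 is higher in astrocytes than in background droplets in each library.

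Levels of different receptors were also divided by length, and since reads from introns were counted, the length of the whole gene and that of its exons give different orders. Whether UMI counts of 3′ chemistry grow with either length was not tested, so that these orders are no measure of relative abundance. Per kb of gene span, pyramidal nuclei as a whole held 3.46 CPM of Grm5, 2.33 of Grm7, 1.66 of Grm3, 0.951 of Grm8, 0.680 of Grm2 and 0.212 of Grm4. Per kb of exon, Grm7 came first with 366 CPM, before Grm5 with 186, Grm3 with 130, Grm8 with 82.6, Grm4 with 3.51 and Grm2 with 1.80. Astrocytes held 8.08 CPM of Grm3 per kb of span, against 0.713 of Grm5 and 0.463 of Grm7, and Grm3 led there by both lengths. In PV nuclei Grm5 led by both lengths, with 3.78 CPM per kb of span against 0.607 of Grm7.

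Across the 16 classes, the genes whose mean log2 (CPM + 1) followed each receptor most closely among 12076 genes were named by Pearson's r, which is a description over classes that share libraries. Grm5 was followed by the noncoding Gm16894 (r = 0.935) and by the splicing factor gene Srrm3 (r = 0.928), Grm8 by the transcription factor gene Foxo6 (r = 0.920) and Efcc1 (r = 0.905), and Grm4 by the adenylyl cyclase gene Adcy3 (r = 0.885) and the acetylcholinesterase gene Ache (r = 0.855). Grm2 was nearest to the hexokinase-family gene Hkdc1 (r = 0.899) and Lemd1 (r = 0.858), Grm3 to Tpmt, a thiopurine methyltransferase (r = 0.851), and Adk, adenosine kinase (r = 0.848), and Grm7 to Tnrc6c, of the microRNA silencing complex (r = 0.822), and Car10 (r = 0.820). Between the receptors themselves r ran from -0.516 for Grm3 and Grm5 to 0.691 for Grm4 and Grm5.

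The first comparison asked whether the maternal environment left a mark on receptor transcripts. Grm4 in NP nuclei was lower in Run than in Sed mice. In cohort 1 it was 159 CPM in RunGH (160 UMIs) against 246 CPM in SedGH (185 UMIs). Group-housed mice of cohort 2 gave 57.5 CPM in RunGH (64 UMIs) against 115 CPM in SedGH (37 UMIs), and isolated mice 68.0 CPM in RunSI (104 UMIs) against 132 CPM in SedSI (86 UMIs). Run was below Sed in each of the 3 pairs, but across cohorts the groups overlapped, since RunGH of cohort 1 was above both Sed libraries of cohort 2. With cohort, maternal environment and housing as terms of one edgeR fit over the 6 libraries, the log2 difference, Run minus Sed, was -0.84 (SE 0.16), with an adjusted p of 0.0476 by Benjamini-Hochberg over 9369 genes. Within cohorts, the log2 ratio of single libraries was -0.63 (95% interval -0.95 to -0.32) in cohort 1, -1.002 (-1.61 to -0.38) in group-housed and -0.95 (-1.38 to -0.53) in isolated mice of cohort 2; these intervals cover counting error only. This was 1 call in 71 tests of a receptor in a class, 1.41%, and in NP nuclei 8 of 9369 genes, 0.0854%, were called.

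The call rested close to the threshold. Without either library of cohort 1 the effect rests on cohort 2 alone, and those fits gave -1.04 and -1.03, as cohort 2 by itself gave -1.04. Without each one of the 4 libraries of cohort 2 it was lost, at adjusted p between 0.323 and 0.552, with log2 differences from -0.77 to -0.75. DESeq2 gave -0.87 with an adjusted p of 0.765. Sums of marker genes moved with it in NP nuclei. The 5 markers of the L5 Chst8/Npsr1 class, of which 4 were above 5 CPM, summed to 654, 365 and 412 CPM in Run and to 690, 545 and 587 CPM in Sed libraries of the same pairs, and the 5 markers of the NP class itself to 6632, 5505 and 5937 CPM in Run and 6984, 6347 and 6321 CPM in Sed. Their part in the difference of Grm4 was not tested.

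**Figure D3:**
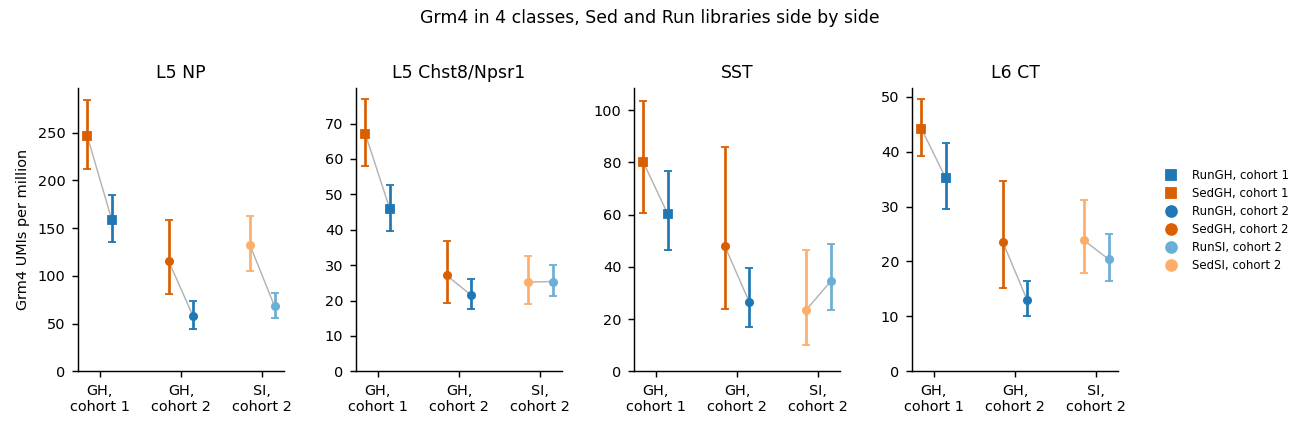
Grm4 levels (CPM, linear axes from 0) in 4 classes, with Sed and Run libraries of the same cohort and housing joined by a line and exact 95% Poisson intervals for counting error. In NP nuclei Run is lower than Sed in each of the 3 pairs (159 against 246, 57.5 against 115 and 68.0 against 132 CPM), and in SST nuclei the isolated pair goes the other way.

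The fitted difference of Grm4 was negative in each of the 11 sets of nuclei where it was tested, NP and pyramidal nuclei as a whole included, with a median of -0.37, although no other set passed the test. The sets come from the same 6 libraries, so that their signs are not independent. In L2/3, deep Oprk1 and PV nuclei the mean level of Grm4 was below that of the background droplets of each library. Values with an unadjusted p under 0.05 were -0.43 (SE 0.11) in pyramidal nuclei as a whole (adjusted p = 0.668), which contain the NP nuclei, -0.45 (SE 0.18) in L6 CT (adjusted p = 0.781) and -0.37 (SE 0.16) in L5 Chst8/Npsr1 nuclei (adjusted p = 0.663), all by edgeR. In L6 CT nuclei Run was below Sed in the 3 pairs, at 35.1 against 44.2, 12.9 against 23.5 and 20.4 against 23.8 CPM. In L5 Chst8/Npsr1 nuclei the isolated pair was level, at 25.4 in RunSI against 25.2 CPM in SedSI.

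Grm8 in L2/3 nuclei was the next largest by p and did not pass. RunGH and SedGH of cohort 1 had 360 and 398 CPM, RunGH and SedGH of cohort 2 had 183 and 278 CPM, and RunSI and SedSI had 160 and 267 CPM. Run lay below Sed in each pair, with single-library log2 ratios of -0.14 (-0.20 to -0.08), -0.60 (-0.72 to -0.48) and -0.74 (-0.84 to -0.63), while the fit gave -0.54 (SE 0.14, unadjusted p = 0.00509, edgeR adjusted p = 0.552). The 5 markers of L2/3 summed to 1524, 895 and 939 CPM in Run and 2001, 1053 and 951 CPM in Sed libraries of the same pairs, and their part was not tested. In the larger L2/3 cluster alone the fit gave -0.56 (SE 0.15, edgeR adjusted p = 0.559). In mid-layer nuclei the fit gave -0.23 (SE 0.09, edgeR adjusted p = 0.627).

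Grm3, Grm5 and Grm7 gave no call and no unadjusted p under 0.05 for the maternal environment in 12 classes or in pyramidal nuclei as a whole. For Grm5 the fitted log2 differences ran from -0.11 to 0.09 and for Grm7 from -0.20 to 0.17, with medians of -0.03 and -0.02. Grm3 ran from -0.37 in NPY/Lamp5 to 0.22 in VIP nuclei. Grm2 was fitted above 0 in 6 of 7 classes and in pyramidal nuclei as a whole, by at most 0.43 (log2), with adjusted p of 0.71 or more by edgeR, and it also holds the lowest counts. Over all receptors and classes 6 of 71 tests, 8.45%, had an unadjusted p under 0.05 by edgeR, where 6.69% of the tests of all genes did, and 3 by DESeq2, which called none. The median of the 71 fitted differences was -0.03, with 45 below and 26 above 0. Among all genes the share called for the maternal environment was 0% in pyramidal nuclei as a whole and in L2/3, 0.0077% in mid-layer, 0.0377% in L5 IT, 0.0712% in L5 Chst8/Npsr1, 0.0153% in L6 CT, 0.0841% in deep Oprk1, 0.11% in PV, 0.0864% in SST, 0.023% in VIP, 0.11% in NPY/Lamp5 and 0.0813% in astrocyte nuclei.

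**Figure D4:**
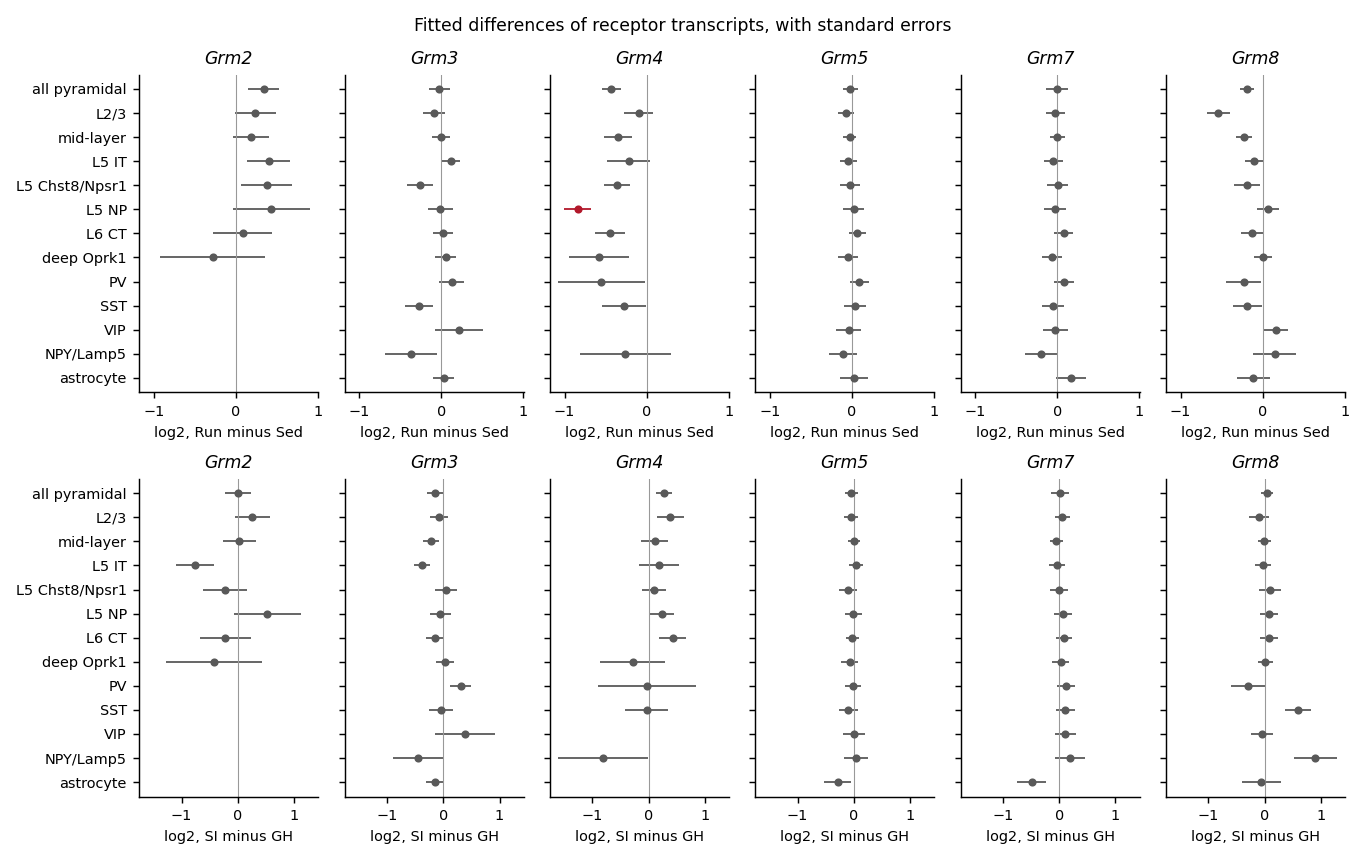
Fitted log2 differences (x axes) of each receptor gene, Run minus Sed in the upper row and SI minus GH in the lower row, for the 12 classes and all pyramidal nuclei, with standard errors as bars. The red point, Grm4 in NP nuclei at -0.84, is the one value past the threshold, and the points of Grm5 lie between -0.29 and 0.09.

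The second comparison asked whether social isolation after weaning changed the receptors. None of 71 tests passed with edgeR or with DESeq2, and 4, 5.63%, had an unadjusted p under 0.05 with edgeR, where 2.01% of the tests of all genes did, and 1 with DESeq2. Among all genes the share called for housing was 0.0108% in SST and 0.0232% in astrocyte nuclei, and 0% in each of the other 11 sets of nuclei. Grm3 in L5 IT nuclei was lower in isolated mice of cohort 2, at 351 CPM in RunSI and 358 in SedSI against 487 in RunGH and 439 in SedGH. Its fitted difference, SI minus GH, was -0.38 (SE 0.14, unadjusted p = 0.023, edgeR adjusted p = 1.00). The single-library ratios were -0.47 (-0.56 to -0.38) for RunSI over RunGH and -0.29 (-0.44 to -0.15) for SedSI over SedGH.

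Grm8 was higher in isolated mice in SST nuclei, by 0.60 (SE 0.24, unadjusted p = 0.0168, edgeR adjusted p = 1.00). There RunSI had 132 CPM (119 UMIs) and SedSI 167 CPM (57 UMIs) against 105 CPM (95 UMIs) in RunGH and 74.1 CPM (17 UMIs) in SedGH of cohort 2. The GH libraries of cohort 1, at 279 and 358 CPM, were above all of these. In NPY/Lamp5 nuclei the fitted 0.90 (SE 0.38, edgeR adjusted p = 1.00) came from RunSI, at 169 CPM (51 UMIs), since SedSI, at 54.4 CPM (9 UMIs), was below SedGH of cohort 2, at 105 CPM (10 UMIs). Grm2 in L5 IT nuclei, at -0.76 (SE 0.33, edgeR adjusted p = 1.00), rested on 45 and 12 UMIs in RunSI and SedSI. Grm5 and Grm7 had no unadjusted p under 0.05 in any class, with ranges of -0.29 to 0.04 and -0.49 to 0.19, the lowest of both in astrocytes. The ratios RunSI over RunGH, SedSI over SedGH and RunSI over SedSI share libraries with each other and are not independent.

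The Run and Sed comparison was made in both cohorts, and for Grm3, Grm7 and Grm8 it did not come out alike in some sets of pyramidal nuclei. In pyramidal nuclei as a whole Grm7 was 2562 CPM in RunGH against 2060 CPM in SedGH of cohort 1, a log2 ratio of 0.31 (0.30 to 0.33), and 1987 against 2152 CPM in cohort 2, a ratio of -0.12 (-0.14 to -0.09). The mix of classes in this sum differed between libraries. L6 CT nuclei, lower in Grm7 than most pyramidal classes, were 592 of 8163 nuclei in RunGH and 939 of 5142 in SedGH of cohort 1. In cohort 2 they were 1371 of 9936 in RunGH and 574 of 5826 in SedGH. The part of this mix in the ratios was not tested. Grm3 gave 526 CPM in RunGH against 436.6 CPM in SedGH of cohort 1, and 374.5 CPM in both libraries of group-housed mice of cohort 2. For Grm8 in L5 Chst8/Npsr1 nuclei, RunGH was above SedGH in cohort 1, 1097 against 902 CPM, and below it in cohort 2, 727 against 907 CPM. Without the small cluster that sat mostly in RunGH of cohort 2 these were 1097 against 907 CPM and 776 against 910 CPM. With the difference of the maternal effect between cohorts as a further term, which leaves 1 residual degree of freedom, 14 of 73 receptor tests passed by edgeR, 19.2%. All 14 were negative (cohort 2 below cohort 1), 5 of 13 tests of Grm3, 5 of 13 of Grm8 and 4 of 13 of Grm7, and all lay in pyramidal nuclei, whereas Grm2, Grm4 and Grm5 had none. Grm5 is also a long gene, at 550.7 kb against 239.6 kb for Grm3. Calls for this term were common in pyramidal nuclei, at 11.1% of all genes in pyramidal nuclei as a whole, 3.72% in L2/3, 4.18% in mid-layer, 5.09% in L5 IT, 4.56% in L5 Chst8/Npsr1, 1.76% in NP, 4.26% in L6 CT and 2.58% in deep Oprk1 nuclei, and rarer elsewhere, at 1.2% in PV, 0.595% in SST, 0.0183% in VIP, 0% in NPY/Lamp5 and 0.0304% in astrocyte nuclei. In the larger cluster alone 4.3% of all genes passed for L5 Chst8/Npsr1 and 5.78% for L2/3 nuclei, with Grm3 and Grm8 among them in both and Grm7 in L2/3. The cohort 1 effect comes from a single pair of libraries, and the cohorts also differed in tube testing, in the choice of mice by rank and in depth, which cannot be told apart. Without RunGH or without SedGH of cohort 1, 9 receptor tests passed for the maternal environment in place of 1, all lower in Run, but these fits rest on cohort 2 alone, and calls rose among all genes as well, to between 1.55 and 14.2% in the sets of nuclei concerned, and without any one library of cohort 2 none did.

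The share of UMIs from long genes differed between the cohorts. The 1073 genes of at least 200 kb, the receptors aside, took 45.6 and 49.3% of UMIs in background droplets of RunGH and SedGH of cohort 1 and 13.3 to 18.0% in cohort 2. Their share in pyramidal nuclei as a whole was 51.6 and 48.8% in RunGH and SedGH of cohort 1 and 40.9 to 41.6% in cohort 2. In pyramidal nuclei as a whole the median log2 ratio, RunGH over SedGH, of 1004 such genes with 50 or more UMIs was 0.05 in cohort 1, beside -0.05 over all 15065 genes, and in cohort 2 it was -0.01 for 956 long genes, beside 0.12 over all 14318. The median of the long genes itself moved little, from 0.05 to -0.01. It was relative to all genes that they lay higher in RunGH in cohort 1 and lower in cohort 2. The part of free RNA in the difference between cohorts was not tested.

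**Figure D5:**
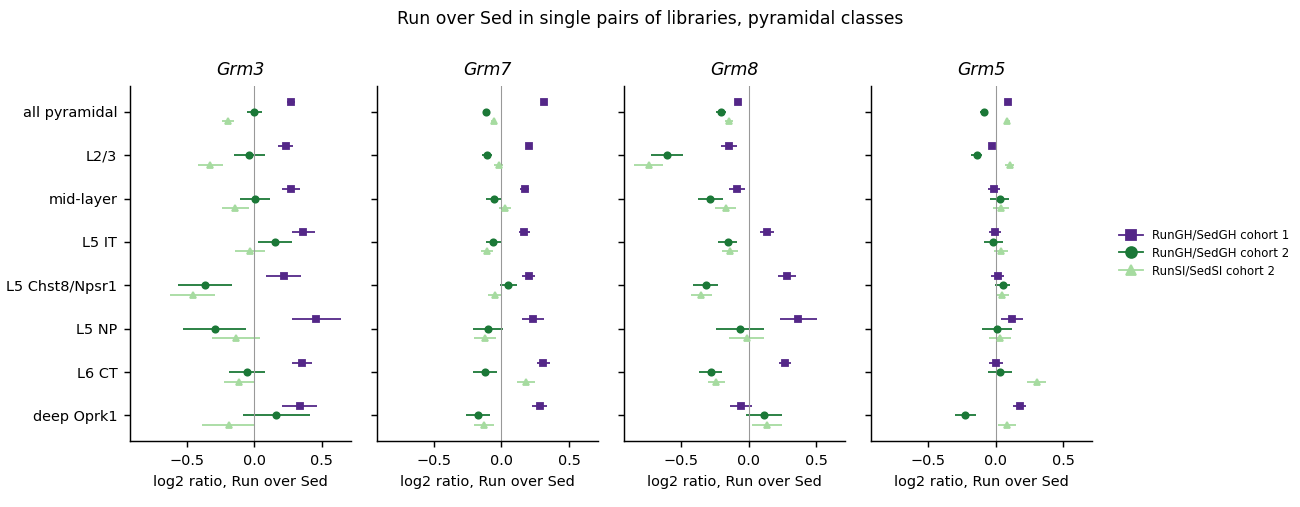
Log2 ratios (x axes) of CPM, Run over Sed, in single pairs of libraries for 4 receptor genes in pyramidal classes, with exact 95% intervals for counting error. In pyramidal nuclei as a whole, whose mix of classes differed between libraries, Grm7 lies at 0.31 in cohort 1 and -0.12 in group-housed mice of cohort 2, and Grm5 at 0.09 and -0.09.

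Genes that work with the receptors were read from a list of 43 symbols, of which 42 were in the files. None of its 472 tests of a gene in a class passed for the maternal environment or for housing with edgeR or with DESeq2, and unadjusted p under 0.05 was seen in 36 tests for the maternal environment (13 with DESeq2) and 7 for housing (2 with DESeq2). These were 7.63 and 1.48% of the tests, beside 6.69 and 2.01% over all genes. Median fitted differences were -0.03 for the maternal environment and 0.01 for housing. The tests of a role repeat a few genes over sets of nuclei that share libraries, and pyramidal nuclei as a whole contain the pyramidal classes. Counts by role are thus counts of tests that are not independent, and not of genes. By role, and with no test of any role against another, unadjusted p under 0.05 for the maternal environment was seen in 17 of 93 tests of binding partners, 11 of 151 of Gi/o proteins, adenylyl cyclases and GIRK channels, 4 of 103 of Gq and phospholipase C genes, 3 of 47 of RGS proteins and 1 of 25 of endocannabinoid synthesis genes, and in none of the tests of Homer scaffolds (28) or of NAAG enzymes (25).

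Elfn1, a postsynaptic adhesion protein that binds group III receptors across the synapse, had the smallest p. In mid-layer nuclei it was 22.2, 12.9 and 13.8 CPM in RunGH of cohort 1, RunGH of cohort 2 and RunSI, and 43.8, 19.6 and 18.5 CPM in the Sed libraries of the same pairs. Run was lower in each pair, with a fitted -0.76 (SE 0.18, edgeR adjusted p = 0.372). In NP nuclei Elfn1 was 79.3, 44.9 and 58.9 CPM in Run and 115, 80.9 and 85.9 CPM in Sed, a fitted -0.63 (SE 0.18, edgeR adjusted p = 0.386). Elfn1 was also among the top 10 genes of an SST cluster, and the part of free RNA in its pyramidal levels was not tested. Prkca, a protein kinase C that acts downstream of group I receptors, was 199, 301 and 247 CPM in Run and 186, 159 and 153 CPM in Sed libraries of L5 Chst8/Npsr1 nuclei, a fitted 0.50 (SE 0.14, edgeR adjusted p = 0.388). Without the small cluster of this class, 111 of whose 128 nuclei came from RunGH of cohort 2 at 1237 CPM of Prkca, the Run libraries had 197, 188.9 and 237 CPM and the Sed libraries 181, 152 and 149.8 CPM, a fitted 0.30 (SE 0.13, edgeR adjusted p = 0.749).

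For housing the smallest p belonged to Grasp, a scaffold protein that binds group I receptors, in L6 CT nuclei. It was 15.1 and 13.5 CPM in RunSI and SedSI against 25.5 and 23.5 CPM in RunGH and SedGH of cohort 2, with GH libraries of cohort 1 at 9.82 and 12.9 CPM, and a fitted -0.77 (SE 0.24, edgeR adjusted p = 1.00). Elfn1 in L5 IT nuclei (0.98, SE 0.34) and Prkca in astrocytes (0.52, SE 0.23) followed, each with an edgeR adjusted p of 1.00.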

How the data were processed

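Nuclei of the PL were profiled in 6 libraries with 10x Genomics 3′ chemistry. Per the labels, the authors aligned reads to mm10 with Cell Ranger 6.0.0 and deposited UMI counts of all barcodes, introns included; the matrices are unfiltered, and their headers name Cell Ranger 4 instead. Barcodes with 500 to 4000 genes, at most 1% mitochondrial UMIs and a minimum of UMIs set in each library (621 to 3156) were kept, leaving 4997 to 9936 nuclei per library. Each library held 19134955 to 188952936 UMIs in all. Nuclei were clustered with scanpy 1.11.5 and leidenalg 0.10.2 on Pearson residuals of 3000 genes, the receptors left out, and named from marker genes. Doublets (1.09 to 6.75% marked per library) were kept, and their removal was an alternative. Counts were summed per library and class and tested with edgeR 4.0.16 (quasi-likelihood, TMM, filterByExpr; R 4.3.3) with cohort, maternal environment and housing as terms and 2 residual degrees of freedom, in classes with at least 20 nuclei in every library. Adjusted p-values are Benjamini-Hochberg over all genes tested, with a threshold of 0.05. The standard errors (SE) printed with edgeR values were derived from the test, as the absolute log2 difference over the square root of its F statistic. DESeq2 1.42.0 was an alternative. The replicate number in the labels is the cohort, which the 2 cohorts' libraries share, and so it was kept as a block. Scripts were tested on simulated data.

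The members and gene lists were chosen with earlier results of these data known. The naming of clusters was adjusted and the non-neuronal nuclei were clustered again after clusters had been seen, and the values of long genes, the fit of the maternal environment in cohort 2 alone the fit of housing with the cohort difference as a term and the fits over the largest cluster of the L2/3 and L5 Chst8/Npsr1 classes were added after results had been seen. Named genes were the members, the partner genes of the 3 tests (a gene in a class) with the smallest p in each comparison and the 2 genes closest to each member over classes. Intervals are exact 95% intervals and cover counting error only, since mice were pooled. No group had 2 libraries in the same cohort. The p-values thus rest on departures from the additive terms of the fit, not on a spread between libraries of the same group and cohort.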

Additional observations from a re-analysis of the deposited data

Results flagged for a closer look

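The effect of the maternal environment, Run minus Sed, differed between cohorts for 14 receptor and class pairs by the test of that difference (cohort 2 minus cohort 1, log2, edgeR). Cohort 1 has 1 pair of libraries, so that the test has 1 residual degree of freedom. That degree is the departure from additive maternal and housing effects in cohort 2, and cohort 1 adds nothing to it. The tests share libraries and, for pyramidal nuclei as a whole, nuclei, whose mix of classes differed between libraries. Grm3 differed by -0.50 in pyramidal nuclei as a whole (adjusted p = 0.00568), -0.44 in L5 IT (0.0317), -0.80 in L5 Chst8/Npsr1 (0.00192), -0.79 in NP (0.000714) and -0.55 in L6 CT nuclei (0.00953). In the single pairs of NP nuclei its log2 ratio was 0.46 in cohort 1, -0.29 in group-housed and -0.14 in isolated mice of cohort 2. The fit uses TMM factors, so that fitted values need not equal differences of such CPM ratios. Grm7 differed by -0.53 in pyramidal nuclei as a whole (adjusted p = 0.000765), -0.39 in L5 IT (0.0108), -0.47 in NP (0.0124) and -0.57 in deep Oprk1 nuclei (0.0051). Grm8 differed by -0.66 in L2/3 (adjusted p = 0.0217), -0.42 in L5 IT (0.00988), -0.79 in L5 Chst8/Npsr1 (0.000111), -0.53 in NP (0.0229) and -0.64 in L6 CT nuclei (0.000113). In L2/3 nuclei Grm8 was lower in Run in both cohorts, so that there the cohorts differ in size and not in direction. In RunGH of cohort 2, 111 nuclei of the L5 Chst8/Npsr1 class came from a cluster of 128 that was all but absent elsewhere, and without it the differences there were -0.77 for Grm3 (adjusted p = 0.00268) and -0.72 for Grm8 (0.000411), beside 4.3% of all genes called. In the larger of the 2 clusters of L2/3 nuclei alone that of Grm8 was -0.72 (adjusted p = 0.00358), and Grm3 (-0.63, 0.0167) and Grm7 (-0.43, 0.0464) also passed, beside 5.78% of all genes called. Other long genes took 45.6 and 49.3% of UMIs in background droplets of RunGH and SedGH of cohort 1, and 17.0 and 13.3% in those of cohort 2. In pyramidal nuclei as a whole of the same libraries they took 51.6 and 48.8%, and 40.9 and 41.6%. The part of free RNA in the differences was not tested.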

How the results depend on the processing

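The lower Grm4 of Run mice in NP nuclei kept its direction under every alternative run, and its call in some. The log2 difference of -0.84 was called with no filter on low counts (-0.80), no upper limit on genes (-0.82), log-normalized clustering (-0.84) and in cohort 2 alone (-1.04). It was not called with DESeq2 (-0.87, adjusted p = 0.765), RLE factors (-0.84, 0.0522), at least 1000 genes per nucleus (-0.73, 0.121), doublets removed (-0.85, 0.0706), background subtracted (-0.81, 0.441), cohorts clustered apart (-0.82, 0.0559), group-housed libraries (-0.75, 0.245) or the cohort difference as a term (-0.58, 0.157), which makes it the effect of cohort 1. Without the replicate block (no cohort term) it was -0.85 with an adjusted p of 1.00, and 0 receptor tests were called. Leaving out 1 library gave -1.04 to -0.75. Receptor tests called for the maternal environment, 1 in all libraries, were 0 in each of DESeq2, RLE factors, at least 1000 genes, doublets removed, background subtracted, cohorts clustered apart and group-housed libraries, 2 with no filter (0.158 and 0.616% of all genes called in those sets), 4 with the cohort difference as a term (0.978 to 5.75%), 9 in cohort 2 alone and 0 to 9 with 1 library left out. The 4 were higher in Run, as effects of cohort 1 (Grm3 0.41 in L5 IT and 0.52 in NP, Grm8 0.42 in NP, Grm7 0.36 in pyramidal nuclei as a whole). In cohort 2 alone the 9 of 65, all lower in Run, were Grm8 in 6 sets of nuclei (-0.77 in L2/3), Grm3 in L2/3 (-0.28) and L5 Chst8/Npsr1 (-0.53), and Grm4 in NP, beside 1.92 to 12.2% of all genes called in those sets. Receptor tests called for housing, 0 in all libraries, were 1 in cohort 2 alone (-0.39, with 0.509% of all genes called), 1 with the cohort difference as a term (-0.38, 0.586%) and 0 to 1 with 1 library left out (1 without RunGH or without SedGH of cohort 1, both -0.38, 0.526 and 0.525%), each time Grm3 in L5 IT. Grm7 in pyramidal nuclei as a whole went from -0.0023 to 0.36 with the cohort difference as a term. Background subtraction took Grm3 in astrocytes to 2254 CPM and Grm5 in NP nuclei to 2893 CPM. Thinning to 1000 UMIs lowered the mean share of nuclei with a UMI to 1.52% for Grm2 (mid-layer), 79.1% for Grm3 (astrocytes), 91.8% for Grm5 and 91.3% for Grm7 (NP) and 69.0% for Grm8 (L5 IT). The cluster that corresponds to L5 IT by its leading gene Il1rapl2 had no name with log-normalized clustering and, in cohort 2, with cohorts clustered apart, and with no upper limit on genes it was named mid-layer, so that L5 IT has no value over the 6 libraries there and the mid-layer class contains it in the last. With log-normalized clustering and with no upper limit on genes no cluster led by Cux2 and Rorb was in L2/3, the one with both among its top 10 genes being named mid-layer, and Grm8 in L2/3 was 227 and 234 CPM and in mid-layer nuclei 712 and 1019 CPM. Except where said, causes were not tested. SedGH of cohort 2, with a median of 1637 UMIs per nucleus, limits Grm2 and Grm4.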
